A study of Mus musculus with 2 samples.

Results

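Snai1, Snai2, Twist1, Zeb1, Zeb2, Prrx1, Vim, Cdh2 and Cdh11 were followed as 9 genes chosen by name: 6 transcription factors of the mesenchymal state, the mesenchymal intermediate filament vimentin, and a pair of mesenchymal cadherins. All 9 were present in both count matrices, among the 16388 genes that the matrices shared. They were described by their level in each dissected position and stage, and by their relation to cells with Epcam transcripts. Epcam, an epithelial adhesion molecule, served only to define the epithelial class and is not itself a result.

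The cells were dissected from wild-type mouse embryos, in the second heart field, progenitors that lie behind the heart tube and feed cells into it. At E9.5 an anterior (54 cells), a middle (61) and a posterior (418) library were dissected, and at E10.5 an outflow tract (31), an anterior (45), a middle (331) and a posterior (560) library. All cells of all libraries are labelled Osr1+, without a statement of how they were chosen, and every one of the 1500 cells held at least 1 Osr1 count. There was 1 sample per stage, the labels do not say how many embryos each pooled, and the stages therefore had no replicate and no test.

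Cells of an epithelium adhere through E-cadherin (Cdh1) and carry keratin filaments. In the transition to mesenchyme, zinc finger repressors of the Snail and Zeb families bind the E-box CACCTG in epithelial promoters, Twist1 and Prrx1 act as further transcription factors of the mesenchymal programme, vimentin replaces keratins, and N-cadherin (Cdh2) or cadherin-11 (Cdh11) replaces E-cadherin. In the second heart field the progenitors form an epithelium-like sheet of splanchnic mesoderm next to the foregut endoderm, so mesenchymal, epithelial-like and endodermal cells lie close together in a dissection.

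The libraries differed in more than position. The median depth was 30202 UMIs (unique transcript molecules) per cell at E9.5 and 5371 at E10.5, and totals per library ran from 196584 UMIs (E10.5 outflow tract) to 13647039 (E9.5 posterior). Of the E9.5 cells 1 of 533 held a UMI of Xist, the transcript of female cells, against 903 of 967 of the E10.5 cells, so stage, depth and sex cannot be told apart. Isl1, a defining factor of the second heart field, was detected in 59.5% of the E9.5 and 33.8% of the E10.5 cells, and Nkx2-5, of cardiac progenitors, in 31.3% and 1.45%. Epcam had a UMI in 70.4% of the E9.5 anterior cells, 37.7% of the middle and 26.3% of the posterior cells. At E10.5 the shares were 16.1% (outflow tract), 2.22% (anterior), 8.76% (middle) and 21.2% (posterior). These Epcam shares were counted without thinning, at the different depths of the stages. The Scrublet doublet caller marked 108 cells, among them all 45 of the E10.5 anterior library, 16 of the 31 outflow tract cells and 12 of the 54 E9.5 anterior cells, so its marks in these small libraries were not used in the main values; 1 barcode occurred in more than 1 library. Levels are given as CPM, the UMIs of a gene scaled to a common total per library, summed over its cells, and within a library fewer cells with a transcript and fewer transcripts per cell cannot be told apart from the sum alone.

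Promoters are shown for Epcam, the gene whose transcripts split the cells and whose promoter letters can hold the Snail and Zeb E-box, for Snai1, the member whose own promoter held it, and for Twist1 and Prrx1, the members with the largest differences between libraries. Each run is the 250 bases before the RefSeq transcription start on GRCm38.p6, written 5′ to 3′ on the gene's strand, with every E-box (CANNTG, which covers CACCTG and its reverse complement CAGGTG) in capitals. The windows are chr17:87635729-87635978 (plus strand) for Epcam, chr2:167537945-167538194 (plus) for Snai1, chr12:33957421-33957670 (plus) for Twist1 and chr1:163313651-163313900 (minus) for Prrx1.
Epcam: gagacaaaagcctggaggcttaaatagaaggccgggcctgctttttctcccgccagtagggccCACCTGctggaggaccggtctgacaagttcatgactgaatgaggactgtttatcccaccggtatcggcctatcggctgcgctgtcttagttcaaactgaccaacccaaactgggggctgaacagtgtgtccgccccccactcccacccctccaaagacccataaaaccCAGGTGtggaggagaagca
Snai1: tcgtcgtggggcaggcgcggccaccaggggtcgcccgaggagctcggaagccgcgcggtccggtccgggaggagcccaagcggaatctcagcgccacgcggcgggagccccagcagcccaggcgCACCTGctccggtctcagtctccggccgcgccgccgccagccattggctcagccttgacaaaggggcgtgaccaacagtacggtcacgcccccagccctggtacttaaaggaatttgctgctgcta
Twist1: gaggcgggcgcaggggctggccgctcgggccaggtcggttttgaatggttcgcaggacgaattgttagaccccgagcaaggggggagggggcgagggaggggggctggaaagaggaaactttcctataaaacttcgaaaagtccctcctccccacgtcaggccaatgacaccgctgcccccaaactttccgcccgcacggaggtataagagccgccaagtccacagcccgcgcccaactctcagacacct
Prrx1: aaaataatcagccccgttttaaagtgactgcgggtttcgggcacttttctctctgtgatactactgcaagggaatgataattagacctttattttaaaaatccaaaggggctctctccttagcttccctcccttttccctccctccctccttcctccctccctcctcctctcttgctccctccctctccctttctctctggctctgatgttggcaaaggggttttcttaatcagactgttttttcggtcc
The Epcam window held 2 E-boxes, both CACCTG on one strand or the other, with their first bases at 187 and 19 bases before the start. The Snai1 window held 1, at 126 bases before the start. Searched on both strands, CACCTG occurred at least once in 17.2% of the 32851 RefSeq promoter windows of this length and at least 2 times in 2.06%, and CANNTG at least once in 66.2%. Twist1, Prrx1, Vim and each of the 4 Zeb2 windows held no CANNTG. RefSeq windows were matched for 5 of the 9 members; Snai2, Zeb1, Cdh2 and Cdh11 had no entry. A match describes letters only and is not a bound site.

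The Snail genes were counted at low levels everywhere. Snai1 (chr2:167538195-167542814, plus strand) was measured at E9.5 at 8.49 CPM in the anterior, 17.5 in the middle and 22.7 in the posterior library. At E10.5 its level was 50.9 CPM in the outflow tract, 23.6 in the anterior, 48.5 in the middle and 24.1 in the posterior library. The E10.5 middle library stood 1.01 on the log2 scale above the E10.5 posterior one (95% counting interval 0.58 to 1.45), whereas the posterior libraries of the stages did not differ beyond counting error. Snai2 (chr16:14705852-14709385, plus strand), the relative of Snai1 best known from neural crest, was measured at 19.3, 13.1 and 16 CPM in the anterior, middle and posterior libraries of E9.5. At E10.5 its level was 31.5 CPM in the anterior, 14.7 in the middle and 32.5 in the posterior library, and no count was seen in the outflow tract, where 3 counts would have been 15.3 CPM. Its posterior library at E10.5 was 1.14 above the middle one on the log2 scale, the opposite order to Snai1 at the same stage.

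Twist1 and Prrx1 varied widely, and the E10.5 anterior library was the highest for both. Twist1 (chr12:33957671-33959829, plus strand), a basic helix-loop-helix factor of head, limb and valve mesenchyme, was measured at E9.5 at 16.2 CPM in the anterior, 18.1 in the middle and 30.0 in the posterior library. At E10.5 its level fell along the axis from 343 CPM in the anterior and 285 in the outflow tract library to 110 in the middle and 56.0 in the posterior library. Every E10.5 library was above every E9.5 library; the outflow tract and anterior libraries did not differ beyond counting error (log2 difference -0.27, interval -0.78 to 0.23). In the E9.5 anterior library 19 of the 21 Twist1 counts came from 1 cell.

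Prrx1 (chr1:163245119-163313710, minus strand), a paired-type homeobox factor of limb and craniofacial mesenchyme, was measured at 16.2 CPM in the anterior, 54.3 in the middle and 22.5 in the posterior library of E9.5. At E10.5 its level was 173 CPM in the outflow tract, 276 in the anterior, 123 in the middle and 24.4 in the posterior library. The posterior libraries of the stages differed by 0.11 on the log2 scale, within counting error (interval -0.25 to 0.47), while the anterior libraries differed by 4.09 (3.37 to 4.87). The posterior library was below the middle one at both stages, with log2 differences of -1.27 at E9.5 and -2.34 at E10.5. A long non-coding gene on the same strand inside Prrx1, Gm26523, had 6 counts at E9.5 and 43 at E10.5, beside 415 and 440 counts of Prrx1.

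After thinning every cell to 4500 UMIs, Twist1 had a UMI in 80.0% of 40 E10.5 anterior cells (exact binomial interval 64.4% to 90.9%), 48.4% of 31 outflow tract cells, 34.0% of 291 middle cells and 15.5% of 471 posterior cells. Without thinning these shares were 82.2%, 54.8%, 37.2% and 19.5%. Prrx1 in the same thinned cells was seen in 62.5%, 51.6%, 42.6% and 8.92%. In the epithelium-like cells of E10.5 each was seen in 2 of 56 thinned cells (3.57%, interval 0.435% to 12.3%; median depth 6807 UMIs, against 5273 over the E10.5 anterior library). The Prrx1 share of the posterior library lies within that interval, which is too wide to separate them, and the Twist1 posterior share lies above its upper end. Epithelium-like cells of the E9.5 middle library also held Prrx1 counts, as given below, and the part of free RNA in such counts was not tested. Within the posterior library Prrx1 was uneven: a cluster of 232 cells, 228 of them posterior, had it in 14.6% of 185 thinned cells (9.84% to 20.5%). Both genes were seen together in 56 of the 291 thinned middle cells, where the product of their separate shares gives 42.2 cells, in 14 of the 471 posterior cells (6.51 by the product) and in 20 of the 40 anterior cells (20). These are counts of sparse UMIs within single libraries, and joint counts also follow the depth and makeup of a library.

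Of the Zeb genes, zinc finger and homeobox repressors, Zeb2 was highest in the posterior library at both stages; for Zeb1 the anterior and posterior libraries of E10.5 did not differ beyond counting error (posterior minus anterior -0.39, interval -1.25 to 0.60). Zeb1 (chr18:5591860-5775467, plus strand) was measured at 9.26, 16.9 and 22.6 CPM in the anterior, middle and posterior libraries of E9.5, and at E10.5 at 15.3 (outflow tract), 47.3 (anterior), 23.5 (middle) and 36.0 CPM (posterior). Zeb2 (chr2:44983632-45117395, minus strand), the relative of Zeb1 known for its binding of Smad proteins, was measured at 3.86, 9.37 and 23.2 CPM in the anterior, middle and posterior libraries of E9.5. At E10.5 its level was 25.4 CPM in the outflow tract, 19.7 in the anterior, 33.8 in the middle and 62.1 in the posterior library. The posterior library exceeded the middle one for Zeb2 by 1.31 (0.56 to 2.16) on the log2 scale at E9.5, and by 0.88 (0.48 to 1.29) at E10.5. The anterior values rested on 5 counts at each stage. Zeb2os, on the opposite strand, overlaps Zeb2 and had 57 counts at E9.5 and 17 at E10.5, beside 336 and 293 for Zeb2; whether the counting used strand is not given in the sources used here.

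Vim (chr2:13573927-13582826, plus strand) rose in steps toward the posterior side at E9.5, at 73.3 CPM in the anterior, 153 in the middle and 322 in the posterior library, with each step beyond counting error. At E10.5 it was measured at 397 CPM in the outflow tract, 339 in the anterior, 414 in the middle and 542 in the posterior library. Every E10.5 library was above every E9.5 library, although the E10.5 anterior and E9.5 posterior libraries differed by only 0.07 on the log2 scale (interval -0.25 to 0.38).

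The cadherins differed in order. Cdh2 (chr18:16588877-16809246, minus strand), N-cadherin of cardiac muscle, neural tube and mesenchyme, was measured at 17.0, 41.8 and 64.1 CPM in the anterior, middle and posterior libraries of E9.5. At E10.5 its level was 35.6 CPM in the outflow tract, 114 in the anterior, 42.1 in the middle and 60.6 in the posterior library. The E10.5 anterior library was the highest and the E9.5 anterior library the lowest, whereas the middle and posterior libraries of the stages differed by 0.01 and -0.08 on the log2 scale, within counting error. Cdh11 (chr8:102632095-102785642, minus strand), a cadherin of loose mesenchyme, was measured at 21.6, 51.8 and 36.3 CPM at E9.5 in the same order, and at E10.5 at 71.2 (outflow tract), 55.1 (anterior), 128 (middle) and 127 CPM (posterior). Its E10.5 middle and posterior libraries were indistinguishable, and both stood above all E9.5 libraries.

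**Figure D1:**
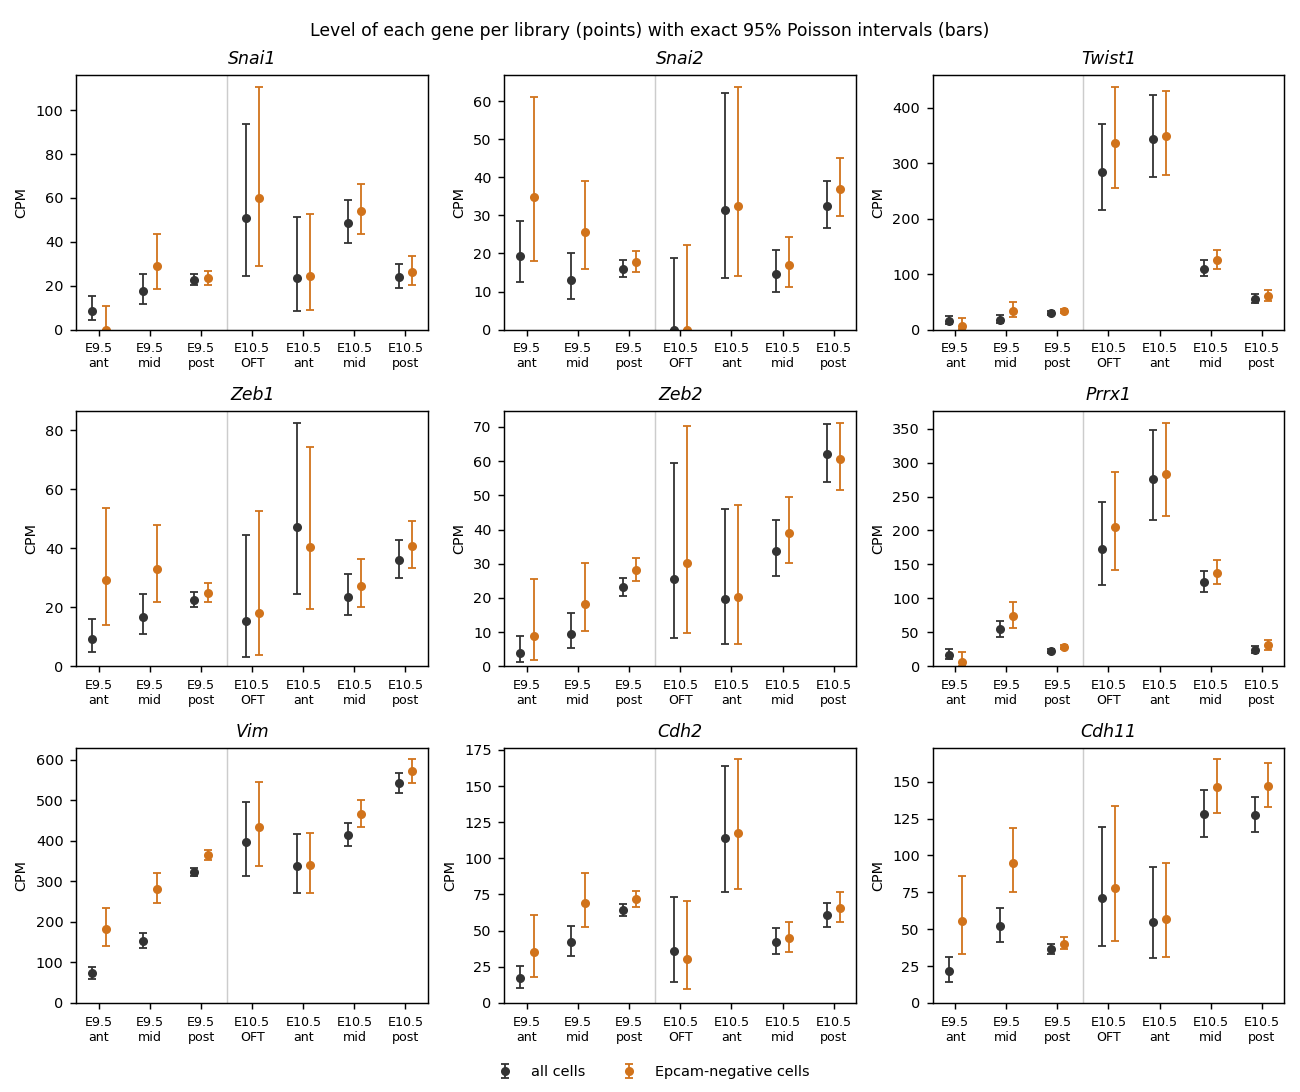
Level of each of the 9 genes in CPM (y axis, starting at 0) in the 3 E9.5 and 4 E10.5 libraries (x axis; ant, mid, post and OFT stand for anterior, middle, posterior and outflow tract), over all cells (black) and over cells without an Epcam UMI (orange), with exact Poisson intervals that cover counting error only. Twist1 and Prrx1 peak in the E10.5 anterior library at 343 and 276 CPM, and Zeb2 and Vim in the E10.5 posterior library at 62.1 and 542 CPM.

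Between positions, no member passed the test. Anterior, middle and posterior libraries of both stages (6 in all) entered edgeR's quasi-likelihood test with terms for stage and position, over 9825 genes; the stages stood in as replicates. None of the 9 members was called at an adjusted p under 0.05 in posterior minus anterior (0.295% of all genes were called), middle minus anterior (0% called) or posterior minus middle (0.193% called). At an unadjusted p under 0.05 there were 4, 1 and 2 members, and 594, 345 and 378 of all genes. DESeq2 also called 0 members in each comparison.

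In posterior minus anterior the members moved in both directions. Zeb2 had a fitted log2 fold of 2.05 ± 0.43 (SE; edgeR adjusted p 0.177), Vim 1.33 ± 0.34 (0.297) and Cdh11 0.87 ± 0.28 (0.538), each positive within both stages. Prrx1 had -1.81 ± 0.73 (0.736) and Twist1 -1.09 ± 0.65 (0.889), and these rested on the E10.5 libraries: without the E10.5 anterior library the values were 0.15 and 0.48. The median of the 9 members was 0.40, against 0.02 over all genes tested. Leaving out any 1 of the 6 libraries raised the calls over all genes from 0.295% to between 0.886% and 3.25%, and gave between 2 and 3 called members, with 2 of 9 lower when an E9.5 anterior or posterior library was left out and 3 of 9 higher without the E10.5 anterior library. Each fit with 1 library left out had 1 position with only 1 library, so its calls do not measure the spread of that position. With the low-count filter removed, 1.61% of 16193 genes and 3 members were called: Zeb2 and Vim higher and Prrx1 lower.

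Cdh11 was the member nearest to a call in middle minus anterior, with a fitted log2 fold of 1.2 ± 0.28 (edgeR unadjusted p 0.00213, adjusted p 1.0), and it was higher in the middle library at both stages. In posterior minus middle the lowest unadjusted p values belonged to Zeb2 (0.98 ± 0.32, edgeR adjusted p 0.795) and Prrx1 (-1.69 ± 0.65, adjusted p 0.996). When 1 of the 6 libraries was left out, the Prrx1 fold there ran from -3.0 to -0.75. Twist1 changed direction in posterior minus middle, from -1.36 without the E9.5 posterior library to 1.22 without the E10.5 posterior library. Each of these Twist1 fits left the posterior position only 1 library, so only sizes are given.

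The position libraries differ in their share of Epcam-positive cells, so the fit was repeated on cells without an Epcam UMI (8950 genes). Again 0 of 9 members were called in posterior minus anterior, middle minus anterior and posterior minus middle, where 0.335%, 0.0894% and 0.369% of all genes were called by edgeR, and 4, 2 and 1 members had an unadjusted p under 0.05. Among Epcam-negative cells the fitted posterior minus anterior fold of Vim was 0.74 ± 0.25 and that of Zeb2 1.49 ± 0.46, both smaller than over all cells. Cdh11 fell further, to 0.34 ± 0.41, with -0.46 at E9.5 (interval -1.12 to 0.29) and 1.38 at E10.5, while Prrx1 stayed at -1.85 ± 0.65 and Twist1 at -1.33 ± 0.59. Zeb1 and Cdh2 changed sign, from 0.40 and 0.40 over all cells to -0.25 and -0.18.

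Between stages there was 1 sample on each side, and only sizes with counting error are given. Averaged with equal weight over the 3 shared positions, E10.5 minus E9.5 was 2.63 ± 0.31 on the log2 scale for Twist1 (95% counting half-width), 1.88 ± 0.66 for Zeb2, 1.80 ± 0.29 for Prrx1, 1.49 ± 0.34 for Cdh11 and 1.46 ± 0.16 for Vim. Zeb1 had 1.17 ± 0.46, Snai1 1.01 ± 0.53, Cdh2 0.89 ± 0.32 and Snai2 0.63 ± 0.48. Over all cells and with 5 CPM added, 5 of the 9 members (Twist1, Prrx1, Vim, Zeb2 and Cdh11) were more than 1 higher. This size was reached by 4.90% of 7912 genes, and the median was 1.36 for the members and -0.03 for all genes. Without Epcam-positive cells, and with no CPM added, Vim had 0.75 and Cdh11 0.84. The share over all genes was not computed for those cells.

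These stage differences were uneven along the axis. Twist1 was higher at E10.5 by 4.4 in the anterior, 2.60 in the middle and 0.90 in the posterior library, and Prrx1 by 4.09, 1.18 and 0.11. Cdh11 did not share this decline, at 1.35, 1.30 and 1.81; its anterior value had a counting interval from 0.31 to 2.33 that covers all 3. Without Epcam-positive cells the mean stage differences were 0.75 ± 0.17 for Vim, 0.84 ± 0.36 for Cdh11, 0.31 ± 0.49 for Zeb1, 0.33 ± 0.37 for Cdh2 (counting half-widths), and 1.14 ± 0.75 for Zeb2, 0.12 ± 0.52 for Snai2, 2.21 ± 0.70 for Prrx1 and 2.89 ± 0.71 for Twist1. The Vim interval lay below that over all cells, and those of the other 7 genes overlapped theirs; Prrx1 and Twist1 rested there on 2 counts each in the E9.5 anterior library. The part of depth and sex in these differences was not tested.

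In the outflow tract at E10.5, compared with the anterior library of the same stage, Cdh2 was lower by 1.68 on the log2 scale (interval -3.12 to -0.46) and Prrx1 by 0.67 (-1.31 to -0.06). Without Epcam-positive cells, 16.1% of the outflow tract and 2.22% of the anterior cells, Cdh2 had -1.96 (-3.69 to -0.58), while the Prrx1 difference was within counting error at -0.47 (-1.10 to 0.14). Snai2, at 0 against 8 counts, was also lower (upper end of the interval -0.40, and -0.20 without Epcam-positive cells). The intervals of the other 6 members held 0. The comparison is of 1 library with 1 library and has no test.

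Cells with an Epcam transcript carried less of the mesenchymal genes. In 6 libraries with at least 5 cells in each class (the E10.5 anterior library had 1 Epcam-positive cell and was left out), counts were summed per library and class and compared with the library as a block. Of the 9 members 7 were called lower in Epcam-positive cells by edgeR's quasi-likelihood test, where 1.93% of the 8858 genes tested were called lower, and the median was -1.14 for the members against -0.01 for all genes. Counts of a library's classes share its cells, dissociation and free RNA, and the 6 libraries come from 2 samples, so the p values measure the spread between libraries within these samples.

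Vim had 183 CPM in Epcam-negative and 33.6 in Epcam-positive cells of the E9.5 anterior library, 282 and 16.7 in the middle and 366 and 213 in the posterior library. At E10.5 the pairs were 433 and 197 (outflow tract), 467 and 138 (middle) and 573 and 455 CPM (posterior). Vim was thus lower in the Epcam-positive class in 6 of 6 libraries, with a fitted log2 fold of -1.41 ± 0.27 (edgeR adjusted p 0.00184).

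Cdh11 was also lower in 6 of 6 libraries. Its Epcam-negative and Epcam-positive levels were 55.3 and 9.45 CPM in the E9.5 anterior, 95 and 6.41 in the middle and 40.2 and 26.6 in the posterior library. At E10.5 they were 78.2 and 32.8 (outflow tract), 146 and 30.8 (middle) and 147 and 70.2 CPM (posterior). The fitted log2 fold was -1.43 ± 0.25 (edgeR adjusted p 0.000735). Cdh2 was lower in 5 of 6 libraries, the outflow tract with its 2 and 5 counts being the exception, and had a smaller fold of -0.89 ± 0.21 (edgeR adjusted p 0.0109).

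Prrx1 was lower in 5 of 6 libraries, with a fitted log2 fold of -1.42 ± 0.26 (edgeR adjusted p 0.00139). Its Epcam-negative and Epcam-positive levels were 28.3 and 7.74 CPM in the E9.5 posterior, 138 and 49.2 in the E10.5 middle and 31.0 and 5.57 in the E10.5 posterior library. In the E9.5 anterior library it was not lower, at 2 counts in Epcam-negative and 19 in Epcam-positive cells. Twist1 was lower in 5 of 6 libraries, with the E9.5 anterior library again the exception, and had -1.06 ± 0.30 (edgeR adjusted p 0.0409). All 19 Twist1 counts of Epcam-positive cells in that library came from the 1 cell named above, which held 1 Epcam UMI.

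Zeb1 was lower in 6 of 6 libraries, at -1.33 ± 0.36 (edgeR adjusted p 0.0277), and Snai2 in 5 of 6, at -1.14 ± 0.32 (edgeR adjusted p 0.0380; no count in either class of the outflow tract). Zeb2 at -1.0 ± 0.32 (edgeR adjusted p 0.0799) and Snai1 at -0.60 ± 0.30 (edgeR adjusted p 0.374) were not called. Both were lower in 5 of 6 libraries, Zeb2 with the E10.5 posterior library as the exception. For Snai1 it was the E9.5 anterior library, with 11 counts in Epcam-positive and 0 in Epcam-negative cells. In cells with 1 Epcam UMI the Snai1 interval lay above 0 in 2 of 6 libraries and below 0 in 0. Zeb2 was called without the E10.5 posterior library (-1.86, edgeR adjusted p 0.00195). Calls for Snai2, Twist1 and Zeb1 were lost without the outflow tract library, whose Epcam-positive class was 5 cells, or without the E10.5 middle library, which left 4 members called; Snai2 was also lost without the E9.5 anterior or the E10.5 posterior library.

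The number of called members depended on the test more than the direction did. DESeq2 called 3 of 9, where 0.432% of 16192 genes were called lower. Limma on log2(CPM + 5) called 0 members, and 1 gene lower in all. Fitted alone, the E9.5 libraries gave 0 calls, where 0.176% of 7974 genes were called lower. The E10.5 libraries alone gave 4, where 0.576% of 6945 genes were called lower. This split was chosen after seeing the data. All 9 folds were below 0 in the fit over all libraries and under every alternative that gave a value. On simulated counts this fit called 56 of 69 genes that had been given a log2 change of 1, with 7 false calls in 183. The simulated libraries shared 1 mean profile, without the differences between libraries and stages seen in the data.

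**Figure D2:**
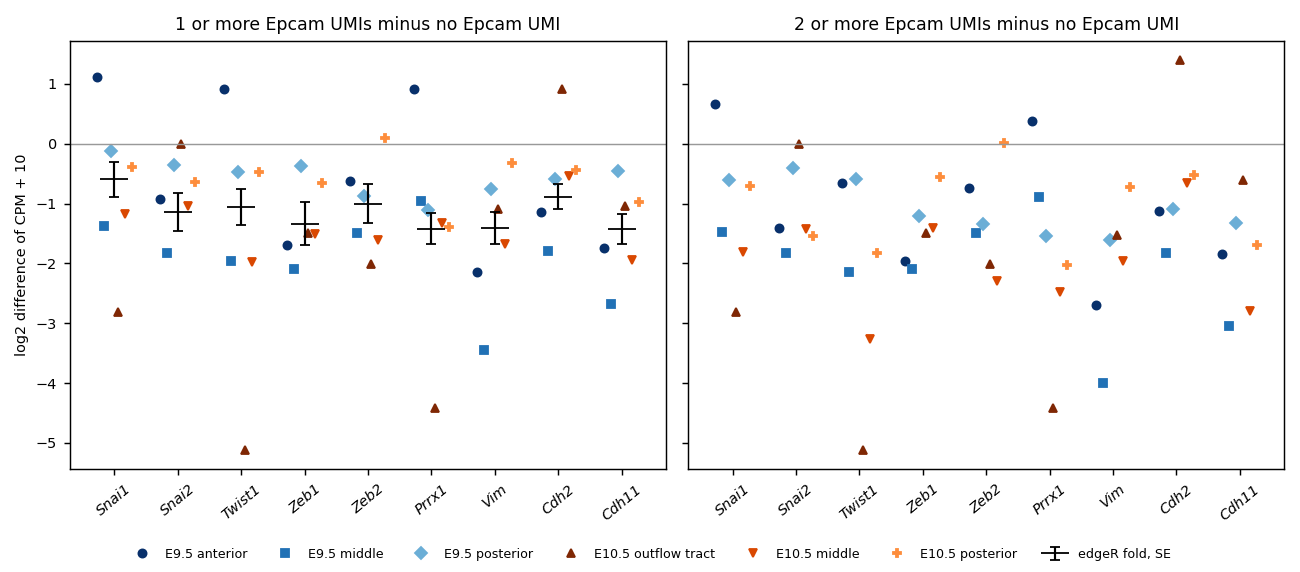
Difference between cells with Epcam UMIs and cells without, on the log2 scale with 10 CPM added (y axis), for each gene (x axis) and each of the 6 libraries (symbols), with 1 or more Epcam UMIs (left) or 2 or more (right) in the positive class. The outflow tract class on the right is 3 cells and did not enter the fit of that class. Black bars on the left are edgeR's fitted log2 folds with their SE, which add no 10 CPM; Vim, Zeb1 and Cdh11 lie below 0 in all 6 libraries in both panels.

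The class of Epcam-positive cells was mixed. For Vim the counting interval of the difference from Epcam-negative cells lay below 0 in 1 of 6 libraries for cells with 1 Epcam UMI. For cells with 2 or more it lay below 0 in 5 of 6, and for Cdh11 these numbers were 0 and 5. Cells with 1 UMI were lower in 5 of 6 libraries for both genes, in classes of 2 to 61 cells, and intervals of small classes are wide. In the middle libraries Vim with 1 UMI and without was 136 and 282 CPM at E9.5 (2 cells with 1 UMI) and 214 and 467 CPM at E10.5 (13 cells). In the posterior libraries it was 342 and 366 CPM at E9.5 and 589 and 573 CPM at E10.5. Summed per stage, cells with exactly 1 Epcam UMI (53 at E9.5 and 76 at E10.5) were mostly posterior (47 and 61). These sums had 327 and 520 CPM of Vim, near the 354 and 517 CPM of Epcam-negative cells. For Cdh11 they had 46.6 and 102 CPM beside 44.8 and 140. Cells with 2 or more (118 and 78) had 71.2 and 264 CPM of Vim and 8.24 and 30.2 CPM of Cdh11. E-cadherin (Cdh1), a reference that the rule did not use, was at 0.914 and 1.07 CPM in Epcam-negative cells, 1.62 and 0 in cells with 1 UMI and 43.3 and 23.7 in cells with 2 or more.

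Twist1, Snai2 and Prrx1 were lowest in cells with 2 or more Epcam UMIs in the stage sums. In Epcam-negative, 1-UMI and 2-or-more cells, Twist1 was at 32.6, 33.0 and 10.9 CPM at E9.5 and at 110, 78.1 and 9.21 at E10.5. Snai2 was at 18.8, 15.2 and 7.97 CPM and at 28.0, 32.0 and 3.95. Prrx1 had 31.1, 17.9 and 11.2 CPM at E9.5 and 89.5, 34.0 and 5.26 at E10.5. These sums mix libraries: 47 of the 53 E9.5 and 61 of the 76 E10.5 cells with 1 Epcam UMI are posterior. Within libraries, Prrx1 in cells with 1 UMI and without was 142.8 and 137.5 CPM in the E10.5 middle and 12.3 and 31.0 CPM in the E10.5 posterior library. At E9.5 it was 104.2 and 5.82 CPM in the anterior and 13.5 and 28.3 CPM in the posterior library. The E9.5 anterior values rested on 10 counts in a class of 4 cells, 7 of them from 1 cell, and on 2 counts.

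With 2 or more Epcam UMIs as the positive class, 5 libraries entered, because the outflow tract had 3 such cells. There edgeR called 8 of 9 members lower, all but Zeb2, where 3.71% of 8519 genes were called lower. In the same 5 libraries with 1 or more UMIs, 4 members and 1.19% of 8725 genes were called lower, and each of the 9 fitted log2 folds was smaller in size (Cdh11 -1.43, Zeb1 -1.33, Twist1 -0.93, Vim -1.39 and Snai1 -0.56). With 2 or more, Cdh11 had -2.57, Zeb1 -2.35, Twist1 -2.02, Vim -2.0 and Snai1 -1.29 (edgeR adjusted p 2.94e-05, 0.00607, 0.00741, 0.00136 and 0.0394). Zeb2 had -1.59 (edgeR adjusted p 0.0522).

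**Figure D3:**
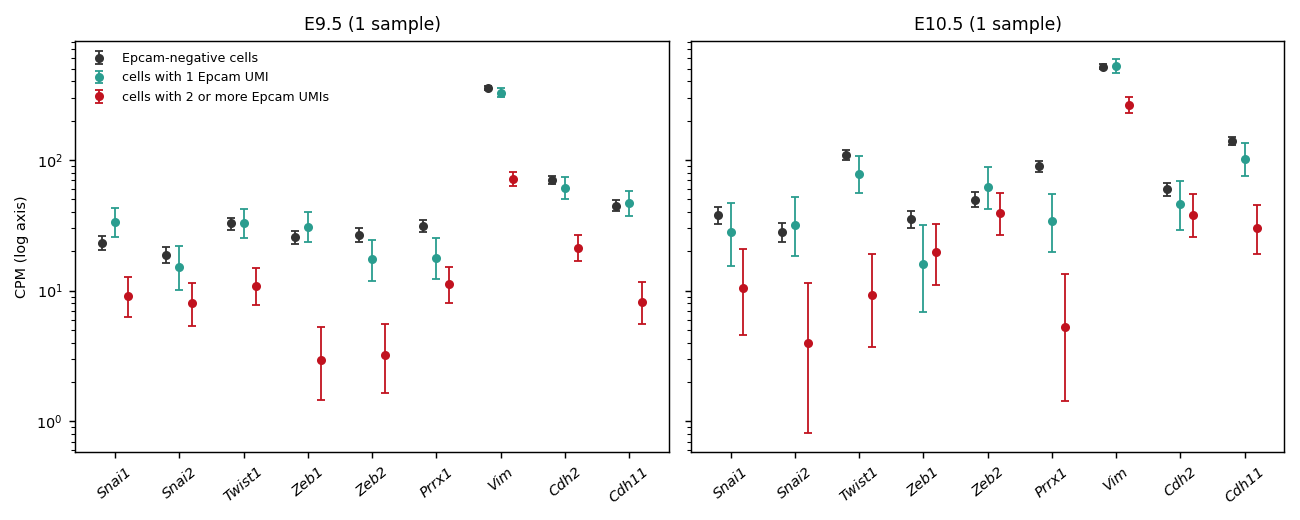
Level of each gene in CPM (log axis) over cells without an Epcam UMI (black), with 1 (green) and with 2 or more (red), summed per stage sample, with exact Poisson intervals. Vim at E9.5 goes from 354 and 327 to 71.2 CPM. At E10.5 Zeb2 has the smallest step from cells without an Epcam UMI to cells with 2 or more, from 49.6 to 39.5 CPM, with 62.1 CPM in cells with 1.

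Zeb2 in the E10.5 posterior library departed from this pattern. It had 60.8 CPM in Epcam-negative cells and 61.0 in cells with 2 or more Epcam UMIs. Of the 30 counts in those 58 cells, 17 came from 9 cells of a cluster led by Afp, Apoa2 and Rbp4, genes of fetal liver cells. A further 7 came from the 36 epithelium-like cells. In the E10.5 middle library no Zeb2 count was seen in 16 such cells, against 67 counts in Epcam-negative cells.

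Prrx1 and Vim parted in the middle library of E9.5. There the 21 cells with 2 or more Epcam UMIs, all in an epithelium-like cluster, held 26 Prrx1 counts in 12 cells beside 6 Vim counts and no count of Twist1, Zeb1, Zeb2 or Snai2. The 38 Epcam-negative cells of that library held 61 Prrx1 and 232 Vim counts. Prrx1 in the same cluster had 9 counts in 34 anterior cells and 1 count in 50 posterior cells. In the E9.5 posterior library 3 cells with 2 or more Epcam UMIs in a mesothelium-like cluster held 28 of the 41 Twist1 counts and 14 of the 26 Snai1 counts of all 63 such cells.

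Clusters of cells, built without the 9 members, Epcam, Cdh1 and Osr1, are a description with no test. Epithelium-like cells had 0.62 CPM of Twist1, 0.93 of Zeb1, 1.24 of Zeb2 and 33.5 of Vim at E9.5 (114 cells), and 3.54, 5.30, 14.1 and 103 at E10.5 (60 cells). The E9.5 values were the lowest of 11 clusters by stage for each of these genes. The E9.5 cardiomyocyte-like cluster (62 cells), led by Actc1, Myl4 and Tnnc1, had 84.3 CPM of Cdh2 and 356 of Vim beside 1.85 of Prrx1 and 5.56 of Snai2.

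Twist1 and Prrx1 peaked together. An unnamed E10.5 cluster led by Crym, Tagln, Twist1 and Prrx1 (162 cells) had 320 CPM of Twist1 and 251 of Prrx1 and held 42 of the 45 anterior and 21 of the 31 outflow tract cells, with 77 middle and 22 posterior cells. After thinning, Twist1 had a UMI in 71.2% of its 146 cells, against 2 of 56 epithelium-like cells of the same stage (3.57%, interval 0.435% to 12.3%). At E9.5 it was seen in 0 of 109 thinned epithelium-like cells. At this depth 3 counts would limit the share of those cells with a UMI to 2.75% and the exact interval ends at 3.33%; unthinned, the 114 cells held 2 Twist1 counts. At E9.5 the epicardium- or mesothelium-like cluster (103 cells), led by Dlk1, Tbx18 and Hand1, was highest for both, at 85.6 and 89.0 CPM. The cluster led by Afp (51 cells, E10.5 posterior only) was highest for Zeb2 at 166 CPM and for Cdh2 at 111 CPM. It met the marker rule for a hepatoblast-like name with 5 of 6 markers. Its cells also had 654 CPM of Vim, 2 Cdh1 counts and an Epcam UMI in 23.5%, and whether they are hepatoblasts was not tested. An unnamed cluster of 232 mostly E10.5 posterior cells, led by haemoglobin genes, was highest for Cdh11 at 197 CPM.

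**Figure D4:**
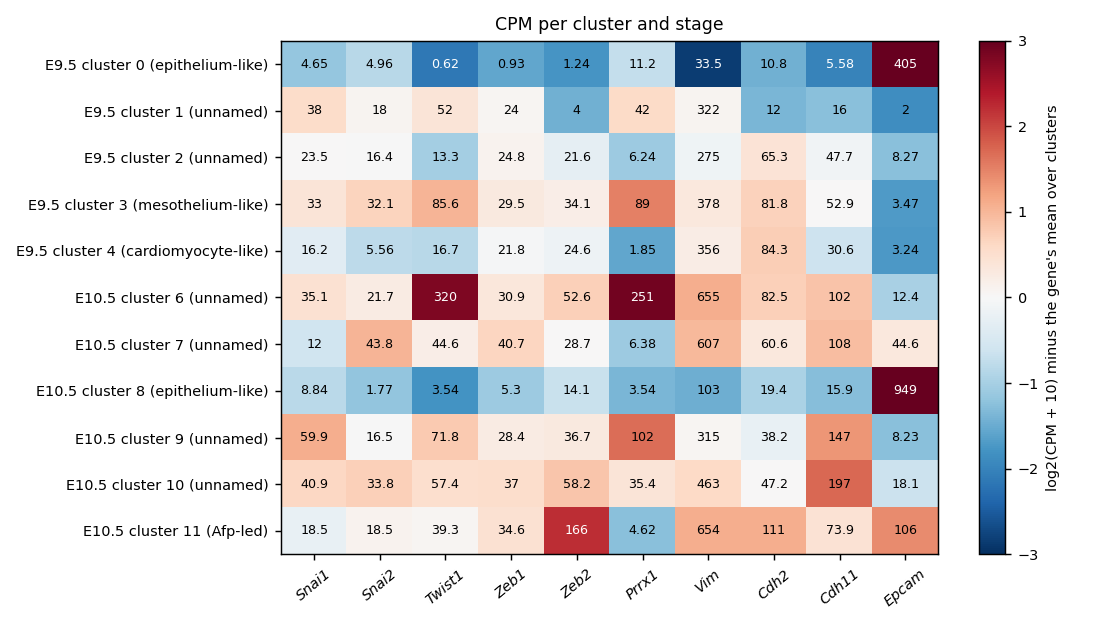
CPM of the 9 genes and Epcam (columns) in 11 clusters by stage with at least 20 cells (rows); numbers are CPM and colours the log2(CPM + 10) difference from the gene's mean over rows. The epithelium-like rows, with 405 and 949 CPM of Epcam, are the lowest rows for Twist1, Zeb1 and Vim.

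Over these 11 sums, Pearson correlations of log2(CPM + 10) describe likeness only, because the sums share libraries, depth and stage. Zeb1 and Vim were closest to each other among 6006 genes (r 0.966). Next came Hdgfl3 (0.965) and Nr2f1 (0.95) for Zeb1, and Nr2f1 (0.952) and Stk3 (0.942) for Vim. Among members Twist1 was closest to Prrx1 (0.830) and Cdh2 to Zeb2 (0.818), while Prrx1 had 0.07 with Cdh2 and 0.14 with Zeb2. The nearest genes were Pdlim4 (0.928), Twist2 (0.881) and Emc2 (0.877) for Snai1, and Gng2 (0.923), Sdc2 (0.879) and Ppp1r14a (0.869) for Snai2. For Twist1 they were Pdlim2 (0.903), Clmp (0.898) and Tmem119 (0.896), and for Prrx1 Anapc16 (0.898), Colec12 (0.878) and Birc5 (0.874). Zeb2 was nearest to Il11ra1 (0.929), Phactr2 (0.929) and Alg5 (0.914). Cdh2 was nearest to Cyp20a1 (0.917), Pitrm1 (0.878) and Lias (0.870), and Cdh11 to Cntln (0.955), 5730455P16Rik (0.938) and Sav1 (0.938).

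Counted per cell after thinning, the mean number of the 8 members other than Vim with a UMI was 2.56 in Epcam-negative cells of the E10.5 anterior library, 1.98 in the middle and 1.54 in the posterior library, and 0.688, 1.26 and 1.02 in the same order at E9.5. In cells with 2 or more Epcam UMIs it was 0.0882, 0.286 and 0.274 in the anterior, middle and posterior libraries of E9.5, and 0.5 and 0.556 in the middle and posterior libraries of E10.5. None of the 8 had a UMI in 31 of the 34 such cells of the E9.5 anterior library (91.2%), against 9 of its 16 Epcam-negative cells (56.25%). In the E10.5 posterior library it was 31 of 54 such cells (57.4%) against 60 of 366 Epcam-negative cells (16.4%). Among Epcam-negative cells of the E10.5 anterior library it was 1 of 39 (2.56%).

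Other genes of the epithelial and mesenchymal states were read in the same Epcam fit. Of all genes tested 3.27% were called higher in Epcam-positive cells. All 17 tested epithelial state genes of a list of 23 were called higher, with a median log2 fold of 4.92. Epcam, an epithelial gene, set the classes, so this direction was built into the split and is no test. Genes low in Epcam-negative cells could also pass the low-count filter through the positive class. The same limits hold for the keratins and Cdh1 below, and the limit of the filter can also hold for Cdh6. The tight junction genes Cldn4 (6.61), Cldn6 (5.75) and the polarity gene Crb3 (5.60) had large folds, as did the protease inhibitor Spint1 (5.31). Of 12 tested genes of mesenchymal matrix and adhesion 7 were called lower (median -0.84), among them the collagens Col1a1 (-1.61) and Col3a1 (-1.27), the matrix glycoprotein Tnc (-1.25) and the PDGF receptor Pdgfrb (-1.20). The median over all tested genes was -0.01.

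Among 11 tested mesenchymal transcription factors outside the 9 members, 4 were called lower and 1 higher. Foxc2 (-1.83), Meox1 (-1.46), Twist2 (-1.29) and Prrx2 (-0.75) were lower, and Sox4 (0.46) was called higher; the median was -0.64. Of 9 other intermediate filament genes, Krt7 (5.29), Krt19 (3.07), Krt18 (2.41) and Krt8 (2.30) were higher, and the muscle filament Des (-1.34) and the progenitor filament Nes (-0.96) lower, the side on which Vim lay.

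Of 4 other cadherins tested, Cdh1 (4.19 ± 0.42, edgeR adjusted p 3.68e-07) and Cdh6 (1.96) were called higher, opposite to Cdh2 and Cdh11. Of 8 catenins and cadherin partners, Arvcf (1.01) and Pkp4 (0.95) were called higher and none lower. Of 10 TGF-beta signalling genes, the ligand Tgfb2 (-0.66) was called lower and the repressor Tgif1 (0.50) higher. In the position fit none of these 7 lists held a called gene.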

How the data were processed

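The authors deposited 1 matrix of raw UMI counts for each stage; the position of a cell is read from its barcode suffix, as explained per the labels. Dissociation used trypsin, capture the 10x Chromium system and alignment the mm10 genome, per the labels' protocols. Cell Ranger 3.0 and Seurat are named, per the submitters' processing notes. The annotation version and the strand setting are not given in the sources used here. Gene positions come from GENCODE vM21 on GRCm38, in which 99.0% of the shared symbols were matched, and promoters from RefSeq on GRCm38.p6.

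No cell was removed. Counts were summed per library, and per library and Epcam class (at least 5 cells each), and fitted with edgeR 4.0.16 (R 4.3.3; TMM, filterByExpr, glmQLFit, glmQLFTest; Benjamini-Hochberg adjusted p under 0.05 over all genes tested). The position fit left 2 residual degrees of freedom and had a biological coefficient of variation of 0.217; the Epcam fit left 5. On simulated counts the posterior minus anterior test called 4 of 65 genes given a log2 change of 1, 44 of 64 given 2 and 61 of 67 given 3. It made 1 false call in 110, and here too the simulated libraries shared 1 mean profile. Fold intervals between single libraries are exact conditional Poisson intervals and shares have Clopper-Pearson intervals (95%); both cover counting error only. Thinning to 4500 UMIs dropped 8 E9.5 and 134 E10.5 cells. Clusters used scanpy 1.11.5 (2000 variable genes without the members, Epcam, Cdh1 and Osr1, 20 components, 15 neighbours) and the Leiden method of igraph 0.11.9 (resolution 0.6), and were named only from at least 3 of a type's markers. DESeq2 1.42.0 and limma 3.58.1 were alternatives.

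The members and the gene lists were chosen with earlier results of these data known. The 9 members are always given, called list genes are named up to 4 per list and fit by size of fold, and the 3 most correlated genes are named per member.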

Additional observations from a re-analysis of the deposited data

Results flagged for a closer look

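For 3 members the position difference had opposite directions in the stage samples, each with a counting interval that excluded 0; with 1 library per position and stage, none of these differences between stages was tested. Twist1 in posterior minus anterior was 0.89 on the log2 scale at E9.5 and -2.61 at E10.5, and in posterior minus middle 0.73 and -0.97. Prrx1 in middle minus anterior had 1.75 in the E9.5 sample and -1.16 in the E10.5 sample. For Cdh2, posterior minus anterior was 1.92 in the E9.5 sample and -0.91 in the E10.5 sample, and in middle minus anterior 1.30 and -1.44. In 4 of these 5 pairs the E10.5 anterior library, of 45 cells, is one of the libraries compared; Epcam-positive cells made up 70.4% of the anterior library of E9.5 and 2.22% of that of E10.5, and the opposite directions were recomputed without Epcam-positive cells. Twist1 in posterior minus middle was then -0.03 (interval -0.58 to 0.59) at the earlier and -1.04 at the later stage, so its opposite direction was lost. The other 4 pairs kept opposite directions, with intervals that excluded 0 and cover counting error only. At E9.5 these 4 rested on 16 Epcam-negative anterior cells with 2 Twist1, 2 Prrx1 and 12 Cdh2 counts. For Cdh2 in middle minus anterior the E9.5 interval was 0.07 to 2.02.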

How the results depend on the processing

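Called members in the Epcam comparison (7) numbered 3 with DESeq2, 0 with limma, 3 after thinning to 4500 UMIs (5 members tested), 4 with at least 10 cells per class, 3 without Scrublet-marked cells, 0 in the E9.5 and 4 in the E10.5 libraries alone (both chosen after seeing the data), and 4 to 7 when 1 library was left out. Called genes (461) numbered 298 with DESeq2, 854 without the filter, 55 with limma, 120 thinned and 796 summed per stage. With at least 10 cells per class they numbered 357, and without Scrublet-marked cells 339. In E9.5 and E10.5 libraries alone they numbered 116 and 165, and 344 to 417 when 1 library was left out. Of 158 single-member values in this comparison 116 kept direction and call, 39 lost the call, 3 gained it and none changed direction.

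For posterior minus anterior, called genes (29) numbered 54 with DESeq2, 260 without the filter, 12 with limma and 95 to 332 when 1 library was left out, and called members (0) numbered 3 without the filter and 2 to 3 when 1 library was left out. For middle minus anterior, called genes (0) numbered 4 with DESeq2, 64 without the filter, 8 without Epcam-positive cells and 14 to 123 when 1 library was left out, and called members (0) numbered 1 without the filter and 0 to 2 when 1 library was left out. For posterior minus middle, called genes (19) numbered 33 with DESeq2, 178 without the filter, 3 with limma, 33 without Epcam-positive cells and 37 to 231 when 1 library was left out, and called members (0) numbered 1 without the filter and 0 to 3 when 1 library was left out.

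Directions changed in posterior minus anterior for Zeb1 (-0.25) and Cdh2 (-0.18) without Epcam-positive cells, in middle minus anterior for Zeb1 without the filter (0.025) and Prrx1 with limma (0.18), and in posterior minus middle for Twist1 with DESeq2 (0.0094) and with library totals (0.027). Ranges when 1 library was left out that crossed 0 were, for posterior minus anterior, Snai1 -0.11 to 1.38, Snai2 -0.43 to 0.14, Twist1 -2.40 to 0.48, Zeb1 -0.49 to 1.22, Prrx1 -3.23 to 0.15 and Cdh2 -0.95 to 1.80. They were, for middle minus anterior, Twist1 -1.94 to 0.83, Zeb1 -0.94 to 0.80, Prrx1 -1.36 to 2.05 and Cdh2 -1.44 to 1.32, and for posterior minus middle, Snai1 -1.13 to 0.33, Twist1 -1.36 to 1.22 and Cdh2 -0.10 to 1.07. A position fit with 1 library left out had 1 position with only 1 library. Its counts of calls above therefore do not measure the spread of that position. The cause was not tested.

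Mean stage differences moved by more than the counting half-width of the all-cell value only without Epcam-positive cells (the intervals of both values overlapped for each gene but Vim), to 0.12 for Snai2, 0.31 for Zeb1, 1.14 for Zeb2, 2.21 for Prrx1, 0.75 for Vim, 0.33 for Cdh2 and 0.84 for Cdh11; Snai1 had no value there because its E9.5 anterior count was 0. Shares of cells with a UMI in the posterior libraries moved with thinning depth in 30 of 36 values. Leaving out all Scrublet-marked cells was not run for positions and stages because it removes the E10.5 anterior library. No paired analysis was possible because the labels give no replicate numbers that pair samples; the library block of the Epcam fit and the stage term of the position fit are part of those fits.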
